A study of Mus musculus with 8 samples.

Results

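The CC chemokine genes Ccl2, Ccl3, Ccl4, Ccl5, Ccl6, Ccl7, Ccl9, Ccl22 and Ccl24 and the receptor gene Ccr2 were followed in the liver of Pemt-/- mice and Pemt+/+ mice. All probe sets that the annotation of the array paired with 1 of these 10 genes and no other gene were taken, which gave 15 of the 45037 probe sets and 10 of the 18193 genes on the array. Ccr2 had 4 probe sets, Ccl6 and Ccl9 had 2 each, and the other 7 genes had 1 each. Pemt-/- mice lack phosphatidylethanolamine N-methyltransferase, the enzyme that makes phosphatidylcholine from phosphatidylethanolamine in hepatocytes. Both genotypes received an HFHS diet, rich in fat and sucrose, for 1, 2, 3 or 4 weeks, and all 8 arrays came from mice on the diet. Total RNA of whole liver was hybridised to Affymetrix expression arrays, with 1 array per genotype at each week, so that 4 Pemt-/- arrays were set against 4 Pemt+/+ arrays. The mice of the study were male. The methods name 4 mice of each genotype but not which mice went to which week or array, and no source used here gives their age at the start of the diet. The p-values therefore measure the spread between these arrays across weeks.

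Chemokines are small secreted proteins that direct the movement of leukocytes through receptors coupled to G proteins. Monocytes that carry Ccr2 leave the bone marrow and enter injured liver along gradients of its ligands, of which Ccl2 is the best known, and there become macrophages. Resident macrophages of the liver, the Kupffer cells, and activated stellate cells are known sources of these ligands. Ccl3, Ccl5 and the rodent chemokines Ccl6 and Ccl9 act through Ccr1, Ccl22 through Ccr4, and Ccl24 through Ccr3. In the RefSeq annotation of the mouse, 7 of the chemokine genes lie on chromosome 11 in the order Ccl2, Ccl7, Ccl5, Ccl9, Ccl6, Ccl3 and Ccl4, with Ccl11, Ccl12, Ccl8 and Ccl1 between Ccl7 and Ccl5. Ccl24 lies on chromosome 5, Ccl22 on chromosome 8 beside Cx3cl1 and Ccl17, and Ccr2 on chromosome 9 beside Ccr3.

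The 250 bases before the start of transcription were read for the members with an entry in the RefSeq promoter table of build GRCm38.p6, which held 5 of the 10 genes. The stretches of Ccl3, Ccl6, Ccl9 and Ccl22 are shown because Ccl3, Ccl6 and Ccl9 lie side by side on chromosome 11 and had higher signals in Pemt-/- liver, while Ccl22 lies elsewhere and did not pass the test. They span chr11:83649379-83649628 on the minus strand for Ccl3, chr11:83593088-83593337 on the minus strand for Ccl6, chr11:83578637-83578886 on the minus strand for Ccl9 and chr8:94745434-94745683 on the plus strand for Ccl22. Each is written 5′ to 3′ on the strand of the gene, with capitals at GGAAGT or its reverse complement ACTTCC. This core is read by transcription factors of the ETS family, among them PU.1 of the macrophage lineage.
Ccl3 upstream: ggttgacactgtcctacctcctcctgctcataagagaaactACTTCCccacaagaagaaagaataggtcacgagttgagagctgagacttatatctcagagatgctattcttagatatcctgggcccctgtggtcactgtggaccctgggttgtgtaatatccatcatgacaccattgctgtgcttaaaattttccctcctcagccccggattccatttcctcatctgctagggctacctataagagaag
Ccl6 upstream: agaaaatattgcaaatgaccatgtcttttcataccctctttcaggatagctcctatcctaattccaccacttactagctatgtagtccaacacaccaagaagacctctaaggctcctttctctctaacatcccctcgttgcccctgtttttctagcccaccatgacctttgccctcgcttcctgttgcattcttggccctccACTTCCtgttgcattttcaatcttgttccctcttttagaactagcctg
Ccl9 upstream: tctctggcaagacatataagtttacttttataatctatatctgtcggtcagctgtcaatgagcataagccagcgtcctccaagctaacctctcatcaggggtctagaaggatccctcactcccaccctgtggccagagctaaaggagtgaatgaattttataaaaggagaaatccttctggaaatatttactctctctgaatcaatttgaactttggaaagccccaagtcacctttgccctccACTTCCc
Ccl22 upstream: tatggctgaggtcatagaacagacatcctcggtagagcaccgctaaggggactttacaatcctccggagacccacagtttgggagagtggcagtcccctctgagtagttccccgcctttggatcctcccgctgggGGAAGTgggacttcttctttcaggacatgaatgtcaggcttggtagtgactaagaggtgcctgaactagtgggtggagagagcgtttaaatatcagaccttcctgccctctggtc
The core was found once in each of these 4 stretches, with its first base at -209 for Ccl3, -48 for Ccl6, -7 for Ccl9 and -115 for Ccl22 relative to the start. It was not found in the same window of Ccr2, which had the fifth entry. Of 32851 RefSeq promoters searched on both strands over the same length, 19.74% held it. The AP-1 motif TGANTCA occurred in the Ccl9 stretch alone among the 5 genes, at -53, and in 6.749% of all promoters. TATAAA was likewise found for Ccl9 alone and in 12.37% of all promoters, and so was the NF-kB motif, at -35 for Ccl9 and in 7.251% of all promoters. TATAAA or its reverse complement had 3 matches there, at -224, -94 and -92, of which the last pair share bases, and matches of different motifs did not overlap in the Ccl9 stretch. These matches describe letters in a window, and the ETS core was chosen after the letters had been seen.

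The signals of these genes were higher in Pemt-/- liver for 6 of the 10 genes and lower for 0. Of the 15 probe sets, 8 rose (adjusted p under 0.05, limma), against 5.16% of all 45037 probe sets that rose and 2.6% that fell. The 8 probe sets belong to Ccl2, Ccl3, Ccl5, Ccl6, Ccl9 and Ccr2. The fitted difference was above 0 for 14 of 15 probe sets, with a median of 1.09 on the log2 scale over the 15 and of -0.03 over all probe sets. At an unadjusted p under 0.05, 11 of the 15 were higher and 0 were lower, against 12.2% of all probe sets that were higher and 9.93% that were lower. In 8 probe sets every Pemt-/- array was above every Pemt+/+ array, as was the case for 8.52% of all probe sets. These are signals of whole liver, in which more cells of a type and more RNA per cell cannot be told apart. Differences and slopes below are on the scale of log2(intensity + 16), on which the change of dim probe sets is understated. The deposited values came without detection calls, so intensities near the low end of the array have no stated floor.

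**Figure D1:**
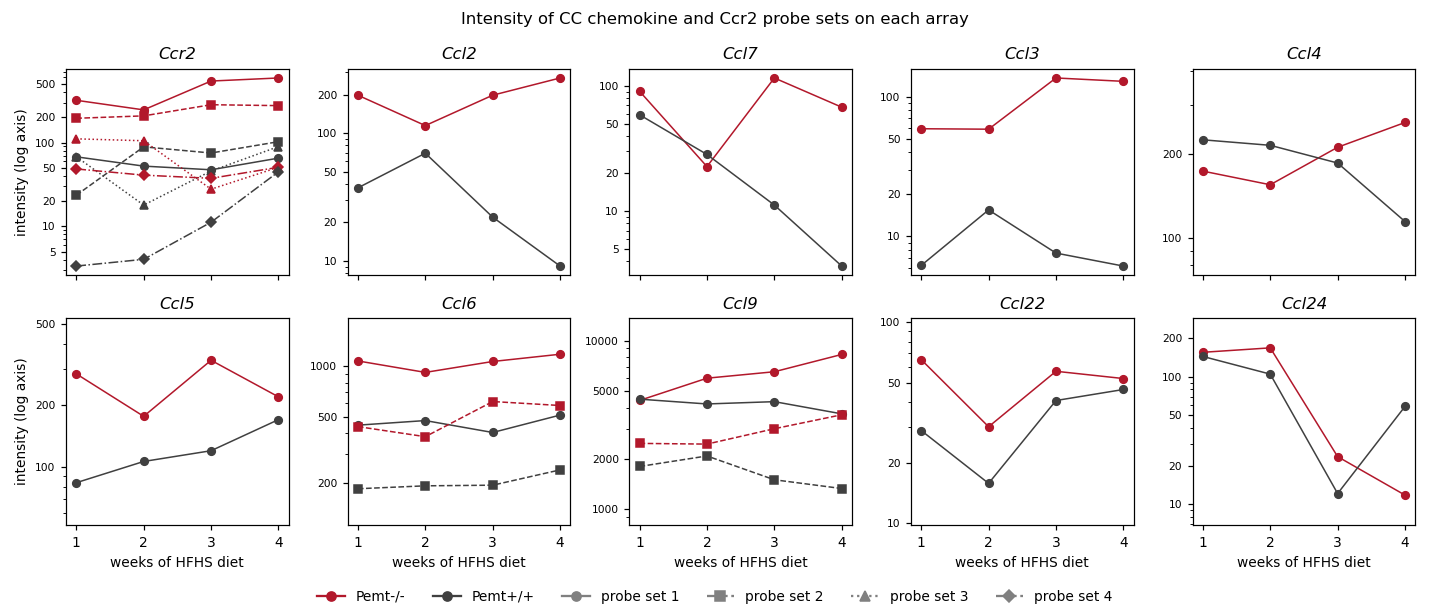
Intensity (log axis) of the 15 probe sets on each array by week of HFHS diet, with red for Pemt-/- and grey for Pemt+/+ and 1 panel per gene. The probe sets of Ccr2 are numbered 1421186_at, 1421188_at, 1460067_at and 1421187_at, those of Ccl6 1417266_at and 1420249_s_at, and those of Ccl9 1417936_at and 1448898_at; the red line lies above the grey line in every week for Ccl2, Ccl3, Ccl5, Ccl6, Ccl22, the second Ccl9 set and 3 of the 4 Ccr2 sets.

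Ccr2, the receptor of inflammatory monocytes, had the largest fitted difference of the members with pseudocounts of 16 and 64, while with a pseudocount of 1 that of Ccl3 was larger (3.27, against 2.77 for Ccr2). Its probe set 1421186_at measured 320, 246, 543 and 591 in weeks 1 to 4 of Pemt-/- liver, against 67.6, 52.4, 47.3 and 65.2 in Pemt+/+ liver. The groups did not overlap, and the Pemt-/- arrays of weeks 3 and 4 were the brightest. The fitted difference was 2.50 ± 0.25 (SE, n = 4 arrays per genotype), or 5.65-fold (adjusted p = 0.00186, limma), with a 95% interval of 1.92 to 3.08. The probe set 1421188_at measured 195, 209, 283 and 276 in Pemt-/- liver and 23.5, 89.0, 75.1 and 103 in Pemt+/+ liver. Here too the groups were apart, with the Pemt+/+ array of week 1 below the other Pemt+/+ arrays, and the rise was 3.10-fold (1.63 ± 0.26, adjusted p = 0.00852, limma). It did not pass without week 3 (adjusted p = 0.0564).

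The other 2 probe sets of Ccr2 did not pass. The probe set 1421187_at measured 48.4, 40.8, 37.4 and 50.7 in Pemt-/- liver, against 3.35, 4.03, 11.2 and 44.8 in Pemt+/+ liver. The week 4 Pemt+/+ array reached the level of the Pemt-/- arrays, so the groups overlapped, and the difference was 1.09 ± 0.34 (adjusted p = 0.0959, limma). The probe set 1460067_at measured 111, 105, 27.7 and 50.7 in Pemt-/- liver and 67.8, 17.9, 45.8 and 89.6 in Pemt+/+ liver. Its order turned between weeks, with Pemt-/- higher in weeks 1 and 2 and lower in weeks 3 and 4, and the difference was 0.32 ± 0.43 with an interval of -0.67 to 1.31 (adjusted p = 0.729, limma). With all 4 averaged in 1 test per gene, Ccr2 still passed.

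The ligands of Ccr2 among the members were Ccl2 and Ccl7, the monocyte chemoattractants. Ccl2 measured 198, 115, 198 and 271 in Pemt-/- liver, against 37.2, 69.6, 21.9 and 9.07 in Pemt+/+ liver. The groups did not overlap, the closest pair being the 2 arrays of week 2, where the ratio was 1.65. In weeks 1, 3 and 4 the ratio of Pemt-/- to Pemt+/+ was 5.32, 9.04 and 29.8, the last against a dim Pemt+/+ array. The fitted rise was 4.46-fold (2.16 ± 0.43, 95% interval 1.18 to 3.14, adjusted p = 0.0200, limma). It did not pass with the arrays of week 1, 3 or 4 left out, when adjusted p was 0.0750, 0.103 and 0.0807. With pseudocounts of 64 and 1 the difference was 1.40 and 2.74.

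Ccl7 measured 90.7, 22.7, 116 and 67.6 in Pemt-/- liver and 58.8, 28.4, 11.2 and 3.64 in Pemt+/+ liver. The groups overlapped, with ratios of Pemt-/- to Pemt+/+ of 1.54 and 0.800 in weeks 1 and 2 and of 10.3 and 18.6 in weeks 3 and 4. Over the 4 weeks the difference was 1.17 ± 0.45 and did not pass (adjusted p = 0.170, limma). Ccl12, which also binds Ccr2 in mice and lies between Ccl7 and Ccl5 on chromosome 11, averaged 29.7 in Pemt-/- liver and 12.6 in Pemt+/+ liver and did not pass (0.76 ± 0.32, adjusted p = 0.202, limma).

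**Figure D2:**
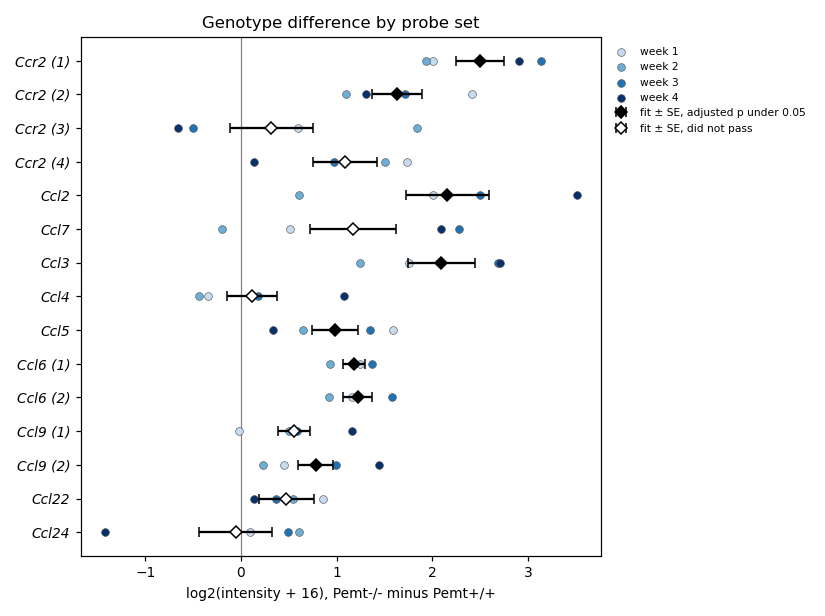
Difference of log2(intensity + 16), Pemt-/- minus Pemt+/+, for each of the 15 probe sets, with blue points for single weeks (1 array per genotype) and diamonds for the fit over 4 weeks ± SE. Filled diamonds mark the 8 probe sets with an adjusted p under 0.05, all to the right of 0. The week points of Ccl2, the Ccr2 set 1460067_at and Ccl7 spread most widely.

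Of the inflammatory chemokines Ccl3, Ccl4 and Ccl5, Ccl3 and Ccl5 rose and Ccl4 did not pass. Ccl3, or macrophage inflammatory protein 1 alpha, measured 58.8, 58.4, 136 and 128 in Pemt-/- liver, against 6.21, 15.5, 7.61 and 6.15 in Pemt+/+ liver. All 4 Pemt+/+ arrays were dim and all 4 Pemt-/- arrays lay above them, and the rise was 4.27-fold (2.10 ± 0.35, 95% interval 1.30 to 2.89, adjusted p = 0.00999, limma). Without week 3 or week 4 the adjusted p of Ccl3 was 0.0623 and 0.0550. The fitted difference of this dim probe set was 1.09 with a pseudocount of 64 and 3.27 with a pseudocount of 1.

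Ccl4, the neighbour of Ccl3 on chromosome 11, measured 174, 155, 212 and 260 in Pemt-/- liver and 226, 216, 186 and 115 in Pemt+/+ liver. Pemt-/- was the lower genotype in weeks 1 and 2 and the higher one in weeks 3 and 4, and the groups overlapped. The difference over the 4 weeks was 0.12 ± 0.26 with an interval of -0.48 to 0.72 (adjusted p = 0.842, limma). The difference between Ccl3 and Ccl4 in their response was not tested.

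Ccl5, also named RANTES and known as a product of T cells, macrophages and other cells, measured 285, 177, 332 and 220.0 in Pemt-/- liver. In Pemt+/+ liver it measured 83.9, 107, 120 and 170, so that the lowest Pemt-/- array, of week 2, lay just above the highest Pemt+/+ array, of week 4. The rise was 1.98-fold (0.98 ± 0.24, adjusted p = 0.0439, limma). It was lost with any single week left out, when adjusted p ran between 0.0571 and 0.201 (limma). It was also lost with quantile normalization (adjusted p = 0.0739, limma), with a pseudocount of 64 (adjusted p = 0.0539, limma) and in the fits without an intensity trend given below. The summed intensity of 12 measured T and NK cell markers was 734 to 771 on the Pemt-/- arrays and 527 to 666 on the Pemt+/+ arrays, with 0 of the 12 genes past the threshold (limma; 3 higher and 0 lower at an unadjusted p under 0.05), and its part in the Ccl5 result was not tested. Cd3d, a component of the T cell receptor complex, averaged 84.0 in Pemt-/- liver and 38.2 in Pemt+/+ liver (adjusted p = 0.110, limma).

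Ccl6 and Ccl9, which act through Ccr1 and are known from rodents, had the smallest standard errors of the members. Ccl6 measured 1077, 919.8, 1069 and 1181 in Pemt-/- liver, against 445, 474, 402 and 511 in Pemt+/+ liver on the probe set 1417266_at. The second probe set, 1420249_s_at, whose suffix marks probes shared between transcripts, measured 436, 380, 616 and 583 in Pemt-/- liver and 186, 193, 195 and 241 in Pemt+/+ liver. Both sets kept the genotypes apart at every week, and they rose 2.27-fold (1.18 ± 0.11, adjusted p = 0.00155, limma) and 2.34-fold (1.22 ± 0.15, adjusted p = 0.00342, limma). Ccl6 and the brightest probe set of Ccr2 were the members that passed with each of the 4 weeks left out in turn.

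Ccl9, macrophage inflammatory protein 1 gamma, had 2 probe sets with unlike outcomes. The probe set 1448898_at measured 2461, 2437, 3006 and 3637 in Pemt-/- liver, against 1796, 2073, 1498 and 1329 in Pemt+/+ liver. The groups were apart, the gap between genotypes was widest in week 4, and the rise was 1.72-fold (0.78 ± 0.18, adjusted p = 0.0358, limma), which was lost without week 1, 3 or 4 (adjusted p of 0.0682, 0.166 and 0.122). On the probe set 1417936_at the signal was 4424, 5992, 6544 and 8286 in Pemt-/- liver and 4501, 4216, 4350.2 and 3683 in Pemt+/+ liver. The week 1 arrays were alike, with a ratio of 0.983, so the groups overlapped there, and the difference of 0.56 ± 0.17 did not pass (adjusted p = 0.0830, limma). Averaged over both probe sets, Ccl9 did not pass.

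Ccl22 and Ccl24, which draw Ccr4-bearing T cells and Ccr3-bearing eosinophils, did not pass. Ccl22 measured 65.2, 30.2, 57.0 and 52.5 in Pemt-/- liver and 28.9, 15.8, 40.8 and 46.3 in Pemt+/+ liver. Pemt-/- was higher in 4 of 4 weeks but the groups overlapped, with week 2 the dimmest in both genotypes, and the difference was 0.47 ± 0.29 with an interval of -0.19 to 1.13 (adjusted p = 0.392, limma). Ccl24 measured 156, 169, 23.7 and 11.8 in Pemt-/- liver and 144, 105, 12.2 and 58.6 in Pemt+/+ liver. Weeks 1 and 2 lay above weeks 3 and 4 in both genotypes, and the genotypes differed by -0.06 ± 0.38 with an interval of -0.92 to 0.81 (adjusted p = 0.953, limma). The summed intensity of 10 measured eosinophil and mast cell markers was 166 to 185 on the Pemt-/- arrays and 128 to 215 on the Pemt+/+ arrays, and 0 of them passed (limma; 0 at an unadjusted p under 0.05).

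Within single weeks, the study took genes at a ratio of 2 or more, or 0.5 or less, as different, and each week held 1 array per genotype, so no test was made. The number of member probe sets at a ratio of 2 or more was 9 of 15 in week 1, 5 in week 2, 10 in week 3 and 10 in week 4. Over all probe sets the share at that ratio was 13.3% in week 1, 13.4% in week 2, 14.4% in week 3 and 15.9% in week 4. A ratio of 0.5 or less was found for 0, 0, 0 and 1 of the 15 in weeks 1 to 4, the 1 being Ccl24 in week 4 at 0.202. In all 4 weeks the ratio was 2 or more for 3 of the 15, the Ccl3 probe set and the Ccr2 probe sets 1421186_at and 1421188_at, against 1.41% of all probe sets. Both Ccl6 probe sets missed this count in week 2 alone, at ratios of 1.94 and 1.97. In week 2 the member ratios of 2 or more were those of Ccl3 and the 4 Ccr2 probe sets. The Pemt-/- array of week 2 had a lower upper quartile of intensity (384) than the other Pemt-/- arrays (412 to 425), against 363 to 370 on the Pemt+/+ arrays, and after quantile normalization the count of week 2 was again 5.

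The change over weeks was compared between the genotypes with a straight line per genotype. The difference in slope passed the adjusted threshold for 0 of the 15 probe sets, and for 0% of all probe sets (limma). At an unadjusted p under 0.05 it differed for 3 of 15, against 6.14% of all probe sets. The 3 were both Ccl9 probe sets and Ccl4. The Ccl9 probe set 1417936_at had a slope per week of 0.28 ± 0.05 in Pemt-/- liver and -0.08 ± 0.05 in Pemt+/+ liver, and the difference in slope was 0.37 ± 0.07 (SE, unadjusted p = 0.000658, adjusted p = 0.737, limma). On 1448898_at the slope difference was 0.37 ± 0.09, with 0.20 ± 0.07 per week in Pemt-/- liver and -0.18 ± 0.07 in Pemt+/+ liver (adjusted p = 0.773, limma). For Ccl4 the slopes were 0.20 ± 0.11 in Pemt-/- liver and -0.29 ± 0.11 in Pemt+/+ liver, a difference of 0.49 ± 0.16 (adjusted p = 0.776, limma).

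The slopes of Ccl2 and Ccl7 had the same signs, with wider errors. Ccl2 had a slope of 0.20 ± 0.21 per week in Pemt-/- liver and -0.44 ± 0.21 in Pemt+/+ liver, and the interval of the difference was -0.03 to 1.32. For Ccl7 the slopes were 0.07 ± 0.25 in Pemt-/- liver and -0.65 ± 0.25 in Pemt+/+ liver, with an interval of the difference of -0.09 to 1.53. Within a genotype 0 of 15 slopes passed in either Pemt-/- or Pemt+/+ liver, against 0.00222% of all probe sets in Pemt-/- (1 probe set) and 0% in Pemt+/+ (limma). At an unadjusted p under 0.05 there were 4 of 15 in Pemt-/- and 5 of 15 in Pemt+/+, against 7.86% of all probe sets in Pemt-/- and 6.32% in Pemt+/+. The steepest was the slope of Ccl24 in Pemt-/- liver, -1.01 ± 0.30 per week (adjusted p = 0.400, limma), while in Pemt+/+ liver it was -0.54 ± 0.30.

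**Figure D3:**
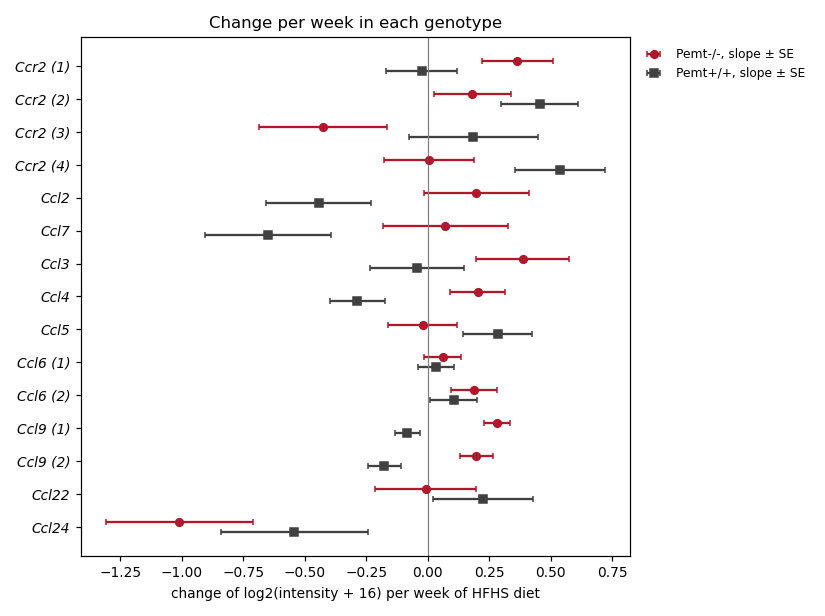
Change of log2(intensity + 16) per week of HFHS diet for each probe set, with red circles for Pemt-/- and grey squares for Pemt+/+ and bars of ± SE. The difference between the 2 slopes had an unadjusted p under 0.05 for Ccl4 and both Ccl9 probe sets, and 0 of the 15 differences passed after adjustment.

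Of 14 other CC, XC and CX3C chemokine genes, 11 were measured and 0 passed in either direction (limma), with a median difference of 0.16. At an unadjusted p under 0.05, 2 were higher and 1 was lower. The lower one was Ccl1, a ligand of Ccr8, at 6.74 on average in Pemt-/- liver and 36.5 in Pemt+/+ liver, a difference of -1.11 ± 0.31 (adjusted p = 0.0728, limma). Cx3cl1, or fractalkine, measured 83.0 to 169 on the Pemt-/- arrays and 44.3 to 94.8 on the Pemt+/+ arrays with its brightest probe set (0.84 ± 0.24, adjusted p = 0.0792, limma). The others of its 4 probe sets differed by -0.41, -0.32 and 0.19 and did not pass. Ccl19, Ccl21a and Ccl26 were not analysed here.

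Among the other chemokine receptors, 2 of 14 measured genes rose and 0 fell, with a median difference of 0.11. Cx3cr1, the fractalkine receptor of monocytes and some macrophages, measured 143 to 485 on the Pemt-/- arrays and 37.3 to 72.1 on the Pemt+/+ arrays, and rose 4.21-fold on 1 of its 2 probe sets (2.07 ± 0.27, adjusted p = 0.00384, limma). Ccr1, the receptor of Ccl3, Ccl5, Ccl6 and Ccl9, measured 52.3 to 177 on the Pemt-/- arrays and 10.8 to 37.8 on the Pemt+/+ arrays, and rose 3.04-fold, also on 1 of 2 probe sets (1.60 ± 0.29, adjusted p = 0.0141, limma). Both are leukocyte receptors, as is Ccr2. Ccr3, the receptor of Ccl24, differed by -0.40 ± 0.36 and Ccr4, the receptor of Ccl22, by -0.34, and neither passed.

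Of 19 measured inflammatory inducers and NF-kB genes, 7 rose and 0 fell. At an unadjusted p under 0.05 (limma), 8 were higher and 1 was lower. The lower one was Il1a, at 46.9 to 85.0 on the Pemt-/- arrays and 123 to 160 on the Pemt+/+ arrays (-0.86 ± 0.23, adjusted p = 0.0618, limma). Tnf, Il1b, Il6, Ifng and Tlr4 did not pass. The 4 with the smallest p were Nfkb2, the subunit of the noncanonical pathway, at 6.35-fold (adjusted p = 0.00291, limma), the bacterial lipoprotein receptor Tlr2 at 2.70-fold, the NF-kB subunit Relb at 2.48-fold and the inhibitor Nfkbia at 1.56-fold. Nfkb2 passed on 1 of 2 probe sets, the other at 1.53-fold (adjusted p = 0.135, limma), and Nfkbia on 1 of 5, the others at 1.10-fold to 1.23-fold. The Nfkb2 probe set that passed measured 159 to 306 on the Pemt-/- arrays and 13.1 to 38.7 on the Pemt+/+ arrays. The other 3 genes were Il33, Csf1 and Tnfaip3. Nfkb1 was not analysed here.

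Markers of several cell types moved with the members. Of 15 measured monocyte and macrophage markers, 13 rose and 0 fell. Those with the smallest p were Cd52 at 4.12-fold, Aif1 at 2.57-fold and Ms4a7 at 4.75-fold. The summed intensity of the 15, taken over the brightest probe set of each gene, was 29488, 24496, 39921 and 43118 in weeks 1 to 4 of Pemt-/- liver. In Pemt+/+ liver it was 14250, 14806, 11059 and 11908. Like the brightest Ccr2 probe set, this sum was lowest in week 2 of Pemt-/- liver and highest in week 4. That was not particular to these markers. The sums of the stellate cell, inducer, other receptor and other chemokine lists were also lowest in week 2 and highest in week 4 of Pemt-/- liver. The week 2 array had the lowest upper quartile of intensity of the Pemt-/- arrays (384). The Kupffer cell list gave 2 genes that rose (Marco and Cd5l) and 1 that fell (Cd163) of 10, and its sum was 31793, 24828, 19812 and 17134 in Pemt-/- liver and 20119, 19457, 15938 and 18549 in Pemt+/+ liver. Clec4f, which marks Kupffer cells, averaged 1926 in Pemt-/- liver and 1867 in Pemt+/+ liver (adjusted p = 0.956, limma). The part of these cells in the chemokine and Ccr2 results was not tested.

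Neutrophil markers S100a8, S100a9 and Csf3r rose among 9 measured, with a sum of 1248 to 1954 on the Pemt-/- arrays and 355 to 822 on the Pemt+/+ arrays. Dendritic cell markers Itgax, Cd83 and Fscn1 rose among 9 measured (sum 2346 to 2524 in Pemt-/- and 1133 to 1596 in Pemt+/+). At an unadjusted p under 0.05 (limma), 6 of these genes had a higher probe set and 1 had a lower one. The lower one was another of the 4 Fscn1 probe sets (-0.46, unadjusted p = 0.0497, limma). Zbtb46 differed by -0.68 to -0.12 on its 4 probe sets and Batf3 by -0.14, and neither passed. Stellate cell markers rose for 10 of 10 genes, with a sum of 42869 to 58527 in Pemt-/- and 17966 to 22418 in Pemt+/+. Those with the smallest p were Reln at 2.07-fold, Dcn at 2.10-fold and Pdgfrb at 3.07-fold. A second Reln probe set was lower, at 0.58-fold (unadjusted p = 0.0463, adjusted p = 0.215, limma). In all these lists a gene counted as risen or fallen where at least 1 of its probe sets passed. Hepatocyte markers fell for 4 of 9 genes (sum 270893 to 341004 in Pemt-/- and 374184 to 407250 in Pemt+/+), among them Hnf4a and Fgb. At an unadjusted p under 0.05 (limma), 9 of the 9 hepatocyte genes had a lower probe set and 0 had a higher one. Endothelial markers Gpr182 and Kdr fell among 10, with overlapping sums. No marker of these lists was listed at 0, and their parts in the member results were not tested. The targeted gene followed the labels, since the Pemt probe set measured 201 to 255 on the Pemt-/- arrays and 4989 to 6045 on the Pemt+/+ arrays.

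The genes whose log2 values over the 8 arrays were most like those of the brightest Ccr2 probe set were Anxa3, Cytip, H2-Ab1, Uap1l1 and Arpp19, with Pearson's r of 0.998, 0.997, 0.997, 0.996 and 0.996. For Ccl2 they were Septin11, Kif22, Ifi207, Fermt3 and Tceal8, at 0.994, 0.993, 0.993, 0.993 and 0.990. These values describe a ranking of all named probe sets above the 40th percentile. The 8 arrays fall into 2 genotypes, and genes that differ between them can rank high on that difference alone. Cytip averaged 488 in Pemt-/- liver and 152 in Pemt+/+ liver, and Kif22 averaged 201 in Pemt-/- liver and 36.9 in Pemt+/+ liver.

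**Figure D4:**
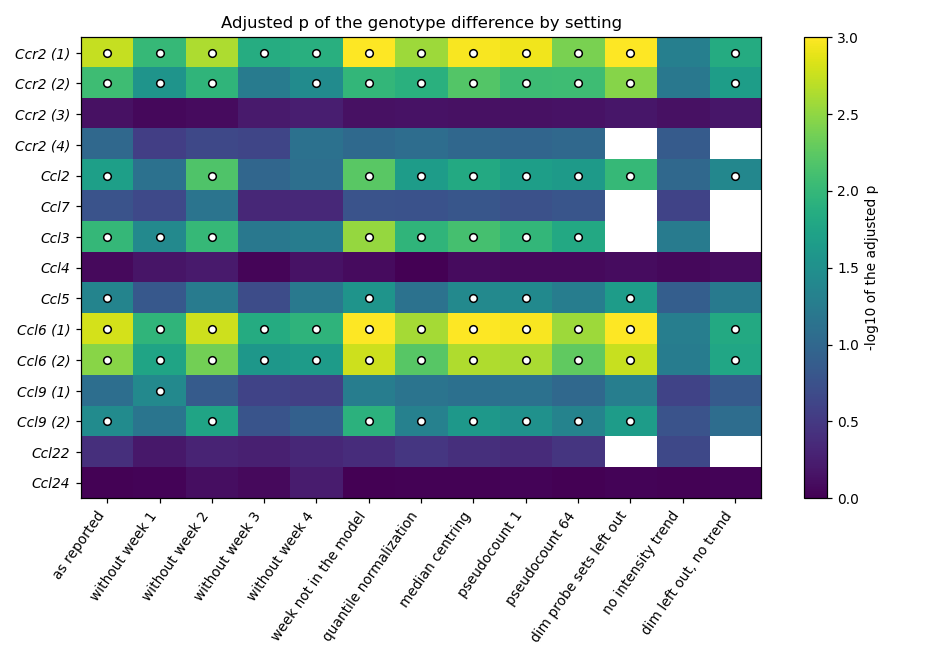
Adjusted p of the genotype difference (colour, -log10) for each of the 15 probe sets (rows) under each setting of the processing (columns), where a dot marks an adjusted p under 0.05 and white a probe set that was not tested. Both Ccl6 sets and the first Ccr2 set have a dot in every column drawn except the fit without an intensity trend over all probe sets, in which 0 of the 15 passed.

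How far each rise depended on the treatment of the values differed between members, as the plot of adjusted p by setting shows. Without the intensity trend in the variance of limma, 0 of the 15 members passed, with adjusted p of 0.0505 to 0.170 for the 8, and 5 of the 45037 probe sets passed in all. With that choice and the dim probe sets left out, Ccl2, Ccl6 and Ccr2 passed, a combination tried after the data had been seen. The filter took the mean over both genotypes, to which the Pemt-/- arrays of Ccl2 gave most (115 to 271, against 9.07 to 69.6 in Pemt+/+ liver). The pass of Ccl2 there is therefore no added support. Leaving out dim probe sets alone, at the 40th percentile, kept 11 of the 15, and Ccl3 was among the 4 that were not tested.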

How the data were processed

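Liver RNA of Pemt-/- and Pemt+/+ mice was measured on 8 Affymetrix arrays, with 1 array per genotype at weeks 1 to 4 of the HFHS diet. The values are probe set intensity on a linear scale as deposited by the authors. They were made with Affymetrix Expression Console, per the submitters' processing notes, and no source used here gives its version or how probes were summarised. Every array had a trimmed mean of 500.0, with 2% of probe sets taken off at each end, and thus had been scaled to a common level. The number of arrays limits the precision.

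After 64 control probe sets were left out, 45037 remained, of which the annotation paired 34945 with 1 gene and 932 with several, and 9160 were unnamed here. Symbols were updated through Entrez identifiers to RefSeq for 34741. Values were transformed as log2(intensity + 16) and fitted by lmFit and eBayes (with an intensity trend) of limma 3.58.1 under R 4.3.3. The genotype difference had week as a factor, and the change per week had a line per genotype. Tests were two-sided with Benjamini-Hochberg adjustment over all 45037 probe sets and a threshold of 0.05. No filter on dim probe sets was used, since a filter on the mean would keep a dim chemokine only through the genotype in which it was high.

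Ratios within a week had no test. The fits were tested on simulated data with 100 probe sets changed at each size. A log2 genotype difference of 1 was called for 36% of them and one of 2 for 76%. A slope difference of 0.6 per week was called for 12% and one of 1.2 for 48%, so most slope differences of 0.6 were missed. Alternatives were filters at the 40th and 60th percentile, pseudocounts of 1 and 64, median centring, quantile normalization, 1 mean per gene, a fit with no intensity trend, no week in the model, and each week left out. The filter and the fit without trend were combined after the data had been seen. All member probe sets are named. Of other chemokine, receptor and inducer genes, those that passed are named, or the 4 with the smallest p where more than 6 passed; of each marker list up to 3 with the smallest p are named, and of genes like Ccr2 or Ccl2 the 5 with the highest r. Ccl1, Cx3cl1, Ccl12, Ccr3, Ccr4, Il33, Csf1, Tnfaip3, Cd3d and Clec4f are named outside this rule, after their values were seen. The same holds for Il1a, Tnf, Il1b, Il6, Ifng, Tlr4, Zbtb46 and Batf3. The members and lists were chosen with earlier results of these data known.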

Additional observations from a re-analysis of the deposited data

Results flagged for a closer look

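In 30 groups of 4 arrays (15 probe sets in each genotype), 2 held an array far from the others of its group, where chance gives about 5% of groups. Ccl3 measured 15.5 in week 2 of Pemt+/+ liver, against 6.15 to 7.61 on the other Pemt+/+ arrays. The Ccl6 probe set 1420249_s_at measured 241 in week 4 of Pemt+/+ liver, against 186 to 195 on the other Pemt+/+ arrays. Both values lay below every Pemt-/- array of the same probe set.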

How the results depend on the processing

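The genotype difference passed for 6 of the 10 genes as reported. It passed for 0 genes with eBayes without trend and for 3 genes (Ccl2, Ccl6 and Ccr2) with dim probe sets left out and no trend together, a choice made after the data had been seen. Ccl2 was dim in Pemt+/+ liver and the filter took the mean of both genotypes, so its pass there is no added support. The cause of the loss without the trend was not tested; 5 of 45037 probe sets passed in that fit, against 3493 as reported. With each week left out in turn the number of genes lay between 2 and 5, and without week 3 or week 4 the 2 were Ccl6 and Ccr2. Calls over all probe sets were then 2030, 3749, 999 and 1125 without weeks 1, 2, 3 and 4, each with fewer arrays. The other alternatives gave 4 to 6 genes. The 4 were Ccl5, Ccl6, Ccl9 and Ccr2, with the filter at the 60th percentile, which also took the mean of both genotypes. The Ccr2 probe set 1421186_at measured 246 to 591 in Pemt-/- liver and 47.3 to 67.6 in Pemt+/+ liver, so its pass there is no added support. The same caution holds for Ccl5 there (177 to 332, against 83.9 to 170). With no replicate block, that is without week in the model, 6 genes passed and 3949 probe sets in all, against 3493 with it. Across probe sets above the 40th percentile, the deviations of the 2 arrays of a week from their genotype means correlated at 0.10, -0.02, -0.03 and 0.11 in weeks 1 to 4. Arrays of unlike weeks correlated at -0.09 to 0.09. The 2 arrays of a week share a week of diet, no source used here names a pairing of animals, and these correlations cannot show whether there was one. The difference in slope passed for 0 genes under every alternative run. Over single probe sets, 25 genotype values were no longer past the threshold, 2 passed newly (the Ccl9 probe set 1417936_at without week 1 and above the 60th percentile), and 0 of those called turned direction. The 4 arrays per genotype and the absence of detection calls limit what dim probe sets such as Ccl3, Ccl7 and Ccl22 can show. Some values near 0 that had not passed turned sign. The genotype difference of Ccl24 was 0.012 with a pseudocount of 64 and -0.28 to 0.40 with a week left out, that of Ccl4 -0.015 with quantile normalization and -0.20 to 0.30 with a week left out, and that of the Ccr2 probe set 1460067_at -0.19 to 0.65. With a week left out, the slope difference was -1.02 to 0.20 for Ccl24, -0.0085 to 0.12 for the Ccl6 probe set 1417266_at and -0.37 to 0.10 for the Ccr2 probe set 1421188_at.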
